A study of Mus musculus with 6 samples.

Results

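The genes described here are Chac1, Slc7a2 and 8 further genes of the response to amino acid shortage and related stress: Slc3a2, Asns, Sesn2, Atf4, Atf5, Atf3, Ddit3 and Trib3. They are 10 of the 23238 gene symbols in the count tables, and each stood on 1 line of every table. RNA came from the gastrocnemius, a calf muscle, of wild-type C57/BL6J mice aged 26 months. One group received farnesol, a sesquiterpene alcohol, by mouth at 350 mg/kg for 30 days (n = 3 libraries), and the other received its vehicle, 5% DMSO in saline, over the same time (n = 3 libraries). The labels call the libraries biological replicates without saying whether each was a separate mouse, so any p-value measures the spread between these libraries.

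The set was put together because Chac1 and Slc7a2 were lower after farnesol in some fits of these same data. The farnesol to vehicle difference of the 10 genes is therefore a description, with no test. Over all 11674 genes that passed a filter on low counts, 0 (0%) were called, that is, reached an adjusted p under 0.05 by the quasi-likelihood test of edgeR, and so 0 of the 10 genes were. DESeq2 and limma-voom also called 0 genes, and 351 genes (3.01%) had an unadjusted p under 0.05 in edgeR. Slc7a2 was chosen on the edgeR fit without the filter, in which it was 1 of 6 genes called lower of 16624 (0.0361%), beside 7 called higher (0.0421%). Chac1 was called without vehicle replicate 2, as 1 of 2 genes called lower of 12064 (0.0166%), beside 1 called higher (0.00829%).

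When amino acids run short, or when proteins misfold in the endoplasmic reticulum, stress kinases phosphorylate the translation initiation factor eIF2. Overall protein synthesis then falls, while the mRNA of the transcription factor ATF4 is translated better. ATF4, alone or with partners of the C/EBP family, switches on genes for amino acid synthesis and transport and, under lasting stress, CHOP (the product of Ddit3), TRIB3 and CHAC1. In skeletal muscle this programme is known from fasting, immobilisation, mitochondrial defects and ageing.

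The response element for C/EBP and ATF proteins is short, and it can be read in the promoters of several of the 10 genes. RefSeq promoter windows of GRCm38.p6, which reach from 250 bases before to 50 bases after a start site, matched 9 of the 10 genes, with 10 windows in all. Slc7a2 had no window and is named only. The core TGATGNAA, searched on both strands (its reverse is TTNCATCA), stood in 4 of the 10 windows, those of Chac1, Atf3, Asns and Trib3, while 3.97% of all 32851 windows held it. The 10 genes were put together partly for known ties to ATF4, so this share is a description. The Chac1 window (chr2:119350992-119351291, plus strand) is shown whole because Chac1 had the lowest ratio of farnesol to vehicle among the 9 genes that passed the filter. Stretches around the match are shown for the 3 other genes, and capitals mark the core.
Chac1: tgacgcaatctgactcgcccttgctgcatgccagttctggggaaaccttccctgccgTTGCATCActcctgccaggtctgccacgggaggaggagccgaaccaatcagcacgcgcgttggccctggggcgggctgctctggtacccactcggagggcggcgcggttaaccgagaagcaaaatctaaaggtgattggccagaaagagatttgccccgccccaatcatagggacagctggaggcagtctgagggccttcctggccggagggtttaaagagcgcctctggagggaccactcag
Atf3: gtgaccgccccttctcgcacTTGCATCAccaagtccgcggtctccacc
Asns: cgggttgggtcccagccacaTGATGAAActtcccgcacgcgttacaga
Trib3: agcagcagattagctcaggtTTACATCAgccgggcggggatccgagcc

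The stretches lie at chr1:191183416-191183463 (Atf3), chr6:7693205-7693252 (Asns) and chr2:152344019-152344066 (Trib3), all on the minus strand and printed in the direction of the gene. The match began 193 bases before the start site in Chac1, 110 before it in Atf3 and 23 before it in Asns, and 14 bases after it in Trib3. Chac1 and Atf3 held the same 8 letters, TTGCATCA, which is the reverse of TGATGCAA. The longer form TGATGCAAT, which contains the core, was in 0 of the 10 windows and in 0.192% of all windows. The cyclic AMP response core TGACGT was in 1 window, 8 bases before the Atf3 start, and in 7.51% of all windows. CCACG, a part of the endoplasmic reticulum stress element, was in 5 of the 10 windows, among them Chac1 and Atf4, and in 32.8% of all windows. A match in these letters shows no binding, and none of these data measured binding.

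The libraries held between 9895700 and 12707751 counts. Levels below are in CPM, counts over the library total after the totals were scaled by the trimmed-mean (TMM) method of edgeR. Fold changes are of farnesol over vehicle. The tissue label fitted the markers: 7 genes of fast fibres summed to between 95270 and 144400 CPM over the 6 libraries, while 3 hepatocyte genes summed to at most 6.44 CPM and 6 T and B cell genes to at most 1.06 CPM. The 45S ribosomal RNA precursor Rn45s took 4.97% of counts in farnesol replicate 1 and between 9.92% and 15.4% in the other libraries. Vehicle replicate 3 held the lowest fast fibre sum, 95270 CPM against 122000 to 144400 CPM elsewhere, and the highest sum of 10 macrophage markers, 243 CPM against 105 to 176 CPM elsewhere.

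The 10 genes spanned a wide range of levels. Per kilobase of the longest GENCODE transcript, Atf4 was the most abundant at 113 ± 12.1 CPM per kb after farnesol and 102 ± 11.5 CPM per kb with vehicle (SD, n = 3 each, as for every later ± value). Atf5 followed at 35.3 ± 7.06 CPM per kb after farnesol and 37.5 ± 13.0 CPM per kb with vehicle, then Ddit3 at 25.3 ± 2.96 CPM per kb after farnesol and 28.1 ± 2.35 CPM per kb with vehicle. Chac1 stood at 15.8 ± 4.92 CPM per kb after farnesol and 32.0 ± 16.5 CPM per kb with vehicle, and Slc3a2 at 17.9 ± 2.86 CPM per kb after farnesol and 18.8 ± 4.31 CPM per kb with vehicle. Slc7a2, whose transcript is long, was at 5.52 ± 0.686 CPM per kb after farnesol and 9.46 ± 4.28 CPM per kb with vehicle. Atf3 was at 3.87 ± 1.88 CPM per kb after farnesol and 2.30 ± 1.01 CPM per kb with vehicle, while Asns, Trib3 and Sesn2 were each at most 1.33 CPM per kb in every library.

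Per kilobase, Atf4 was above Atf5 in 6 of 6 libraries with ranges that did not overlap, and Trib3 was above Sesn2 in the same way. The other neighbours in this order had overlapping ranges over the 6 libraries. On CPM alone the ranges of Trib3 and Sesn2 also overlapped. Trib3 was at 0.310 CPM in farnesol replicate 3 and Sesn2 at 0.508 CPM in vehicle replicate 3, both from few counts. Per kilobase, Chac1 and Slc3a2 could not be ordered, since Chac1 was the higher in 3 of 6 libraries. On mean CPM alone Slc3a2 had rank 4 and Chac1 rank 5. The library protocol reads the 3′ ends of transcripts, so counts need not grow with length. Dividing by length then places long transcripts too low and short ones too high, and the order per kilobase carries this limit. Slc7a2 had rank 3 of the 10 genes on CPM alone and rank 6 per kilobase. Ddit3, whose longest transcript has 969 bases, had rank 6 on CPM alone and rank 3 per kilobase.

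**Figure D1:**
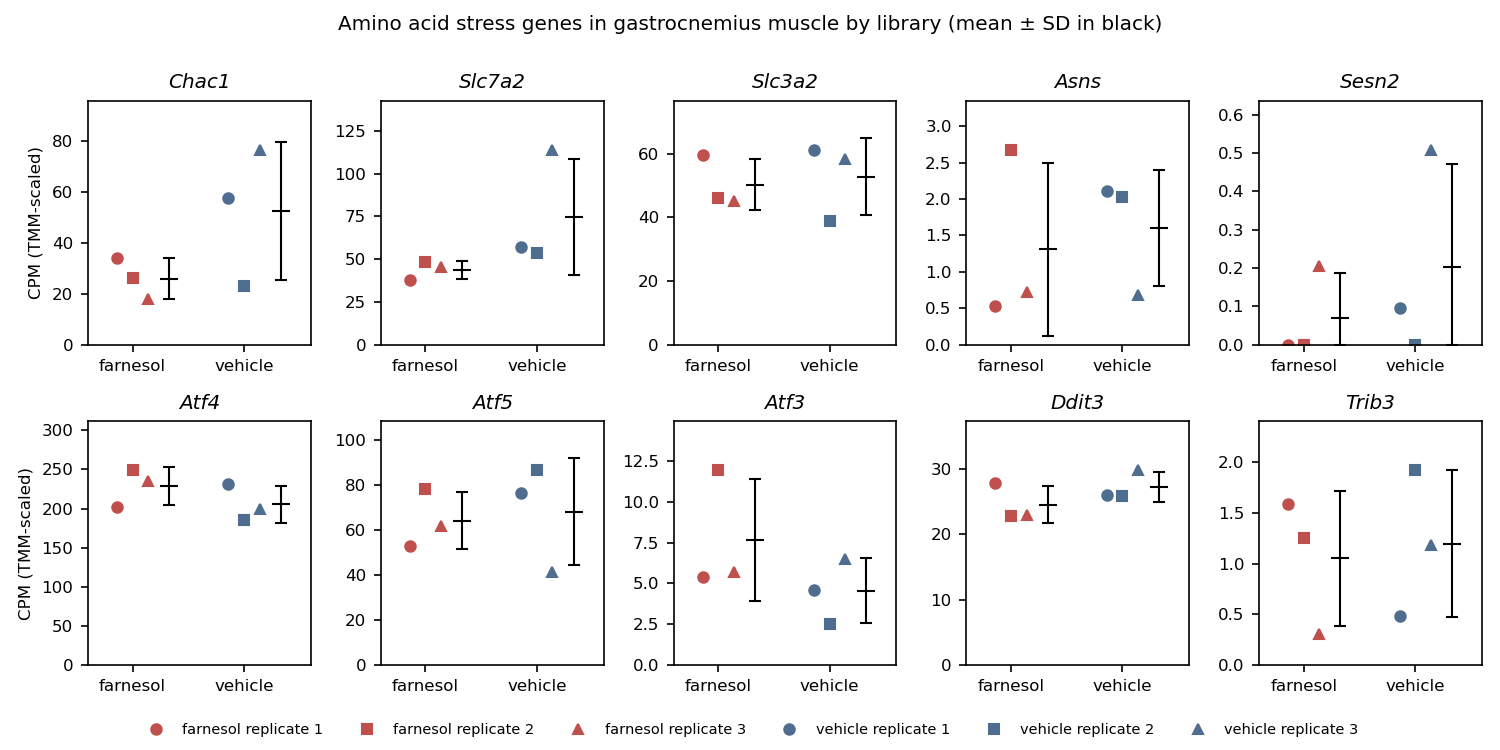
Level of each of the 10 genes in CPM (vertical axes, linear, from 0) in the 3 farnesol libraries (red) and the 3 vehicle libraries (blue), with mean ± SD in black, bars ending at 0 where the SD is larger than the mean. Slc7a2 shows 3 farnesol values below all 3 vehicle values, with vehicle replicate 3 far above the rest, and Chac1 shows vehicle replicate 2 among the farnesol values.

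Chac1 encodes a gamma-glutamylcyclotransferase that breaks down glutathione in the cytosol (chromosome 2, 119351242 to 119354326, mm10). It was measured at 33.8, 26.2 and 17.7 CPM in farnesol replicates 1, 2 and 3, and at 57.5, 23.2 and 76.4 CPM in vehicle replicates 1, 2 and 3. The groups overlapped: vehicle replicates 1 and 3 lay above every farnesol library, while vehicle replicate 2 lay below farnesol replicates 1 and 2. The group means were 25.9 ± 8.05 CPM after farnesol and 52.4 ± 27.0 CPM with vehicle (SD, n = 3 each), a fold of 0.495 and a log2 fold change of −1.01 (SE 0.44).

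The spread of Chac1 was wider in vehicle than in farnesol libraries. The highest library held 1.91 times the lowest after farnesol and 3.30 times the lowest with vehicle. Counting error was small beside this: the 229 counts of vehicle replicate 2 have an exact 95% Poisson interval of 200 to 261 counts, and the 902 counts of vehicle replicate 3 one of 844 to 963. These intervals cover counting error only, since reads copied by PCR are not independent molecules. The biological coefficient of variation that edgeR fitted for Chac1 was 36.5%, and 24.95% of all genes tested had a higher one.

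The size of the Chac1 difference moved with both vehicle replicate 2 and vehicle replicate 3. Without vehicle replicate 2 the log2 fold change was −1.37 (SE 0.24), and without vehicle replicate 3 it was −0.64 (SE 0.34). With any other single library left out it lay between −1.25 and −0.81. Chac1 stayed below vehicle in all 6 of these fits.

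Slc7a2 encodes CAT2, a carrier that brings arginine, lysine and ornithine into cells (chromosome 8, 40862341 to 40922070). It was at 37.6, 48.1 and 45.3 CPM in farnesol replicates 1, 2 and 3, and at 56.8, 53.7 and 113.9 CPM in vehicle replicates 1, 2 and 3. The groups did not overlap, but farnesol replicate 2 and vehicle replicate 2 were close, and vehicle replicate 3 stood at about the sum of the other vehicle libraries. The means were 43.7 ± 5.43 CPM after farnesol and 74.8 ± 33.9 CPM with vehicle (SD, n = 3 each), a fold of 0.583 and a log2 fold change of −0.78 (SE 0.25). Slc7a2 was the 1 gene of the 9 tested whose farnesol values all lay below the vehicle values, where 4.07% of all genes tested did so. For 0 of the 9 did the farnesol values all lie above, where 4.75% of all genes did.

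Most of the Slc7a2 difference lay in 1 library. Without vehicle replicate 3 the log2 fold change was −0.34 (SE 0.19), a fold of 0.790, and with any other single library left out it lay between −0.97 and −0.68. The 1344 counts of vehicle replicate 3 have an exact 95% Poisson interval of 1273 to 1418 counts, above the 531 and 593 counts of the other vehicle libraries. Slc7a2 is also made by activated macrophages, and vehicle replicate 3, the highest library for Slc7a2 and Chac1 alike, had the highest macrophage marker sum. Farnesol replicate 1 had a macrophage marker sum of 176 CPM and the lowest Slc7a2 level, 37.6 CPM. Vehicle replicate 2 had the lowest macrophage marker sum, 105 CPM, and Slc7a2 at 53.7 CPM. For Chac1 these libraries were at 33.8 and 23.2 CPM. All 10 of those markers passed the filter, their sums running from 129 to 176 CPM after farnesol and from 105 to 243 CPM with vehicle. Their part in the Slc7a2 and Chac1 differences was not tested. In whole muscle, fewer cells of a type and less RNA per cell cannot be told apart. The counts join the CAT2 isoforms, and a noncoding gene on the opposite strand, Gm26584, overlaps Slc7a2 exons.

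**Figure D2:**
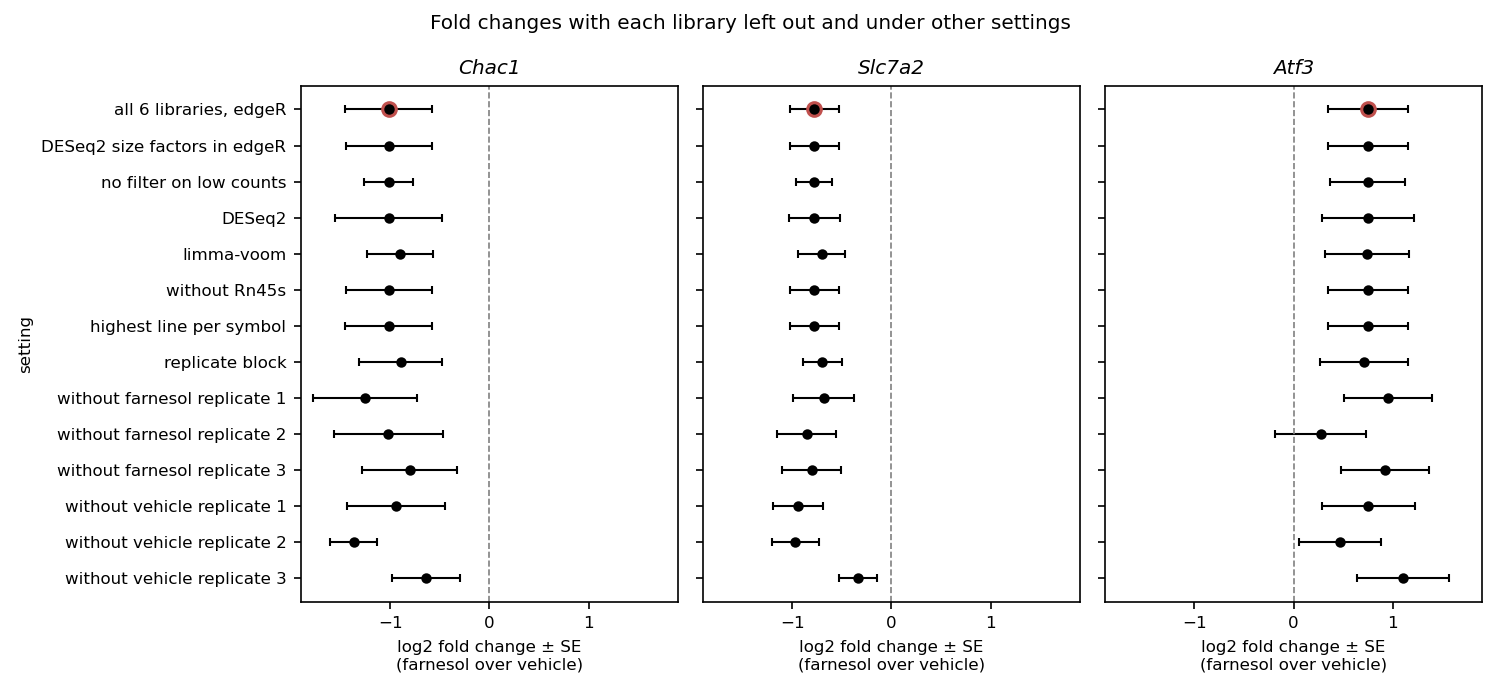
Log2 fold change of farnesol over vehicle (horizontal axes, point and SE) of Chac1, Slc7a2 and Atf3 with all 6 libraries (red ring) and under each other setting or with 1 library left out (rows). Chac1 runs from −1.37 to −0.64 and Slc7a2 from −0.97 to −0.34, both closest to 0 without vehicle replicate 3, and Atf3 is smallest without farnesol replicate 2.

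Chac1 and Slc7a2 differed in how they varied across libraries. Centred on the mean of the 6 libraries, vehicle replicate 3 lay 1.16 above on the log2 scale for Chac1 and 1.04 above for Slc7a2. Vehicle replicate 1 lay 0.75 above for Chac1 and 0.04 above for Slc7a2, and farnesol replicate 3 lay at −0.94 for Chac1 and −0.29 for Slc7a2. The root mean square difference between both genes over the 6 libraries was 0.50 log2 units. This measure counts the size of the swings as well as their direction. The SD within groups was 0.713 log2 units for Chac1 and 0.445 for Slc7a2. The ranking held 6026 other genes with a mean of at least 10 CPM, with symbols that are gene model names left out. In it Slc7a2 ranked 66 in likeness to Chac1, and Chac1 ranked 2076 in likeness to Slc7a2.

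The genes most like Chac1 by this measure were Cyp26b1, a retinoic acid hydroxylase (0.27 log2 units), Tacc2 (0.36) and the lectin gene Clec10a, expressed by macrophages and dendritic cells (0.38). Cyp26b1 averaged 7.65 CPM after farnesol and 21.0 CPM with vehicle, and was highest in vehicle replicate 3 at 35.1 CPM. The genes most like Slc7a2 were the chemokine gene Cxcl12 (0.17 log2 units), Trim56 (0.18) and Impact (0.20), whose product restrains the activation of the amino acid sensing kinase GCN2. Cxcl12 averaged 78.8 CPM after farnesol and 113.7 CPM with vehicle. These likenesses rest on 6 libraries and include the group difference by which Chac1 and Slc7a2 were chosen.

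**Figure D3:**
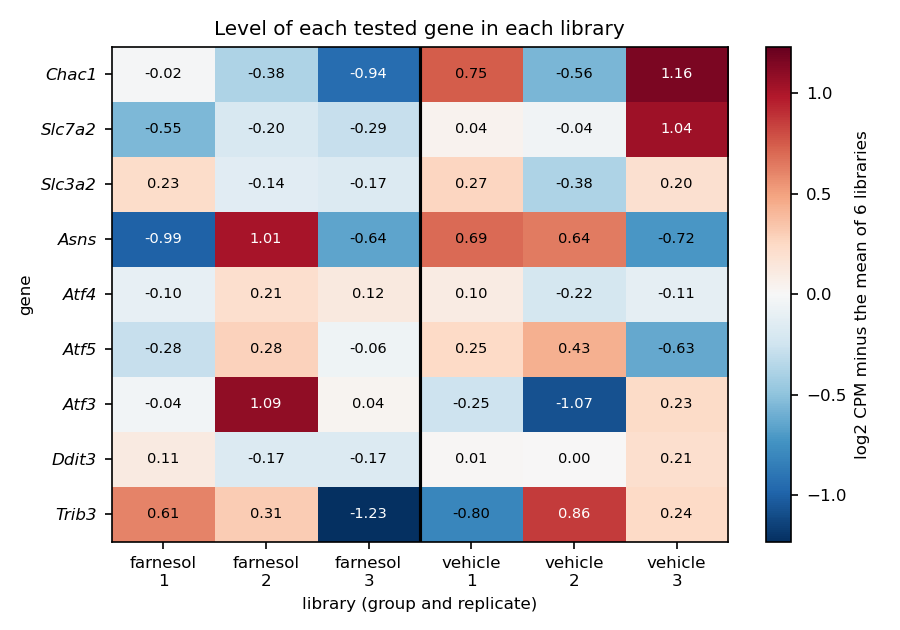
Log2 CPM of the 9 tested genes (rows) in each library (columns, farnesol left of the line), minus the mean of the 6 libraries, printed and coloured. Chac1 and Slc7a2 are highest in vehicle replicate 3, Atf3, Asns and Atf4 are highest in farnesol replicate 2, and no library is high or low for all 9 genes.

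Of the remaining genes of amino acid handling, Slc3a2 and Asns had means closer to vehicle, and Sesn2 was too scarce for a ratio. Slc3a2 encodes the heavy chain shared by several amino acid exchangers, among them LAT1 and xCT. It was at 59.6, 46.2 and 45.2 CPM in farnesol replicates 1, 2 and 3, and at 61.3, 39.0 and 58.3 CPM in vehicle replicates 1, 2 and 3. The groups overlapped, and the log2 fold change was −0.07 (SE 0.19).

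Asns, the synthetase that makes asparagine and a classical ATF4 target, was near the limit of measurement. It had 6, 32 and 7 counts in farnesol replicates 1, 2 and 3, and 22, 20 and 8 counts in vehicle replicates 1, 2 and 3. Each group held both high and low libraries. The log2 fold change was −0.27 (SE 0.78) and moved to −1.34 without farnesol replicate 2. Sesn2, a leucine sensor that restrains the growth kinase complex mTORC1, did not pass the filter on low counts. It had 0, 0 and 2 counts in farnesol libraries and 1, 0 and 6 counts in vehicle libraries. A count of 0 allows up to 3 counts, or 0.251 to 0.310 CPM depending on the library, so no difference was detectable in Sesn2 at this depth.

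Atf4, the most abundant of the transcription factors, varied little between libraries. It was at 202, 249 and 235 CPM in farnesol replicates 1, 2 and 3, and at 231, 185 and 199.8 CPM in vehicle replicates 1, 2 and 3. The groups overlapped, and the means were 229 ± 24.3 CPM after farnesol and 205 ± 23.3 CPM with vehicle (log2 fold change 0.16, SE 0.15). The biological coefficient of variation that edgeR fitted for Atf4 was 14.7%, and 96.5% of genes tested had a higher one. ATF4 is controlled mainly in translation, so its mRNA level alone does not report the amount of its protein.

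Atf5, a relative of Atf4 linked to mitochondrial stress, was at 52.7, 78.0 and 61.7 CPM in farnesol replicates 1, 2 and 3, and at 76.2, 86.6 and 41.4 CPM in vehicle replicates 1, 2 and 3. Vehicle replicate 3, the highest library for Chac1 and Slc7a2, was the lowest for Atf5. The Atf5 log2 fold change was −0.08 (SE 0.23), and its sign turned with single libraries left out, from −0.34 to 0.13.

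Ddit3 encodes CHOP, a factor of lasting stress. It was at 27.9, 22.9 and 22.9 CPM in farnesol replicates 1, 2 and 3, and at 26.0, 25.8 and 29.8 CPM in vehicle replicates 1, 2 and 3. The log2 fold change was −0.15 (SE 0.20), and the groups overlapped. Exons of Mars, on the opposite strand, overlap Ddit3, and those of Nup62 and Il4i1, also opposite, overlap Atf5. Mars was at 55.0 to 71.4 CPM, above Ddit3 in every library, and Nup62 at 27.5 to 37.2 CPM. Whether the counting used strand is not given in the sources used here, so Ddit3 and Atf5 are uncertain.

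Atf3, an early stress and injury factor, had the highest ratio of farnesol to vehicle in the set, 1.68. It was at 5.38, 12.0 and 5.68 CPM in farnesol replicates 1, 2 and 3, and at 4.602, 2.53 and 6.53 CPM in vehicle replicates 1, 2 and 3. Farnesol replicate 2 stood above the rest, and farnesol replicates 1 and 3 lay within the vehicle range. The means were 7.67 ± 3.72 CPM after farnesol and 4.55 ± 1.998 CPM with vehicle, a log2 fold change of 0.75 (SE 0.41). It was 0.27 without farnesol replicate 2 and 1.10 without vehicle replicate 3.

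Trib3, a pseudokinase that restrains ATF4 and CHOP, had 18, 15 and 3 counts in farnesol replicates 1, 2 and 3, and 5, 19 and 14 counts in vehicle replicates 1, 2 and 3. Each group spanned almost the whole range. The log2 fold change was −0.17 (SE 0.83), and it ran from −0.58 to 0.33 with single libraries left out. Of the 9 tested genes, 7 were lower and 2 higher after farnesol, with a median log2 fold change of −0.15. Over all genes tested, 50.9% were lower and the median was −0.01. The 9 genes include Chac1 and Slc7a2, chosen because they were lower in fits of these data, so neither count nor median is a test.

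The rest of the pathway was described with 10 lists, which hold 219 genes and none of the 10 above. Of these, 194 passed the filter, 84 higher and 110 lower after farnesol, with a median log2 fold change of −0.03. In edgeR 0 passed an adjusted p of 0.05 over all genes, and 8 had an unadjusted p under 0.05, 5 of them lower and 3 higher. DESeq2, limma-voom and the edgeR fit without the filter also called 0 of the 194. All 3 farnesol values lay below all 3 vehicle values in 6 of the 194 (3.09%), where 4.07% of all genes did so, and above them in 3 (1.55%), where 4.75% of all genes did so. Both shares are below those over all genes.

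The kinases that phosphorylate eIF2, with the phosphatase subunits and initiation factors around them, numbered 6 higher and 10 lower of 16 tested (median −0.03). Impact was at 9.61, 9.29 and 8.36 CPM in farnesol replicates 1, 2 and 3, and at 10.6, 13.4 and 21.4 CPM in vehicle replicates 1, 2 and 3. These groups did not overlap, as in 6 of the 194 list genes (3.09%, against 4.07% of all genes). The log2 fold change was −0.74 (SE 0.28, not past the threshold). Vehicle replicate 3 was the highest library, as in Slc7a2, to which Impact was among the 3 most like genes. Eif2ak4, the gene of GCN2, averaged 4.12 ± 1.71 CPM after farnesol and 4.88 ± 1.99 CPM with vehicle. Ppp1r15a, the stress-induced phosphatase subunit GADD34 and an ATF4 target, averaged 10.9 ± 0.717 CPM after farnesol and 9.67 ± 2.88 CPM with vehicle. Eif2ak2, the kinase activated by double-stranded RNA, was low, at 2.63 CPM after farnesol and 1.496 CPM with vehicle.

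Partner transcription factors numbered 6 higher and 12 lower of 18 tested (median −0.06). Jun averaged 142 ± 15.5 CPM after farnesol and 189.7 ± 28.5 CPM with vehicle (log2 fold change −0.41, SE 0.16), and Atf2 averaged 25.3 ± 1.28 CPM after farnesol and 18.5 ± 1.81 CPM with vehicle (0.45, SE 0.21). Neither passed over all genes. Atf2 was above every vehicle library in all 3 farnesol libraries, as were 3 of the 194 list genes (1.55%, against 4.75% of all genes). The Jun groups overlapped. Serine, glycine and one-carbon enzymes numbered 10 higher and 4 lower of 14 (median 0.01). Among them Psat1, of serine synthesis, had 30, 16 and 16 counts in farnesol libraries and 18, 1 and 19 counts in vehicle libraries. Phgdh, the first enzyme of the same route, did not pass the filter, with 25, 27 and 5 counts in farnesol libraries and 7, 9 and 4 counts in vehicle libraries. Psph (−0.57, SE 0.41) and Aldh1l1 (0.93, SE 0.74), the 2 of smallest unadjusted p, went in opposite directions without passing.

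Amino acid transporters numbered 7 higher and 14 lower of 21 tested (median −0.10). This median turned to 0.08 without vehicle replicate 3. Slc7a1, the widely expressed relative of Slc7a2, averaged 2.79 ± 1.07 CPM after farnesol and 3.01 ± 1.53 CPM with vehicle (log2 fold change −0.11, SE 0.52). Slc7a3 had 3 counts in 1 farnesol library and 0 in the other 5 libraries. A count of 0 allows up to 3.69 counts by the exact Poisson interval. The light chains that pair with the product of Slc3a2 were scarce: Slc7a5 (LAT1) had 3 to 17 counts in farnesol libraries and 6 to 9 in vehicle libraries, and Slc7a11 (xCT) had 8 counts in farnesol replicate 3 and 0 in the other 5 libraries. Slc6a9, a glycine carrier, averaged 9.34 ± 1.14 CPM after farnesol and 15.0 ± 5.08 CPM with vehicle (−0.68, SE 0.29, not past the threshold). Slc7a8 (LAT2) averaged 11.6 ± 2.73 CPM after farnesol and 15.8 ± 7.41 CPM with vehicle (−0.44, SE 0.33).

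Cytosolic aminoacyl-tRNA synthetases, many of which ATF4 raises, numbered 9 higher and 11 lower of 20 tested (median −0.06). Vars, for valine, averaged 31.3 ± 1.73 CPM after farnesol and 41.1 ± 4.87 CPM with vehicle (−0.39, SE 0.18, not past the threshold). Its groups did not overlap, as in 6 of the 194 list genes (3.09%, against 4.07% of all genes). Tars, for threonine, averaged 46.1 ± 7.82 CPM after farnesol and 53.6 ± 4.91 CPM with vehicle. Other reported ATF4 targets numbered 6 higher and 10 lower of 16 (median −0.06). Ddit4, an inhibitor of mTORC1, ranged from 34.2 to 110.9 CPM in farnesol libraries and from 28.8 to 128 CPM in vehicle libraries. The secreted factors of muscle stress were close to absent: Gdf15 had 4 to 8 counts in farnesol libraries and 4 to 7 in vehicle libraries, and Fgf21 had 6, 0 and 0 counts in farnesol libraries and 0, 0 and 4 in vehicle libraries. The autophagy receptor gene Sqstm1 averaged 402 ± 31.0 CPM after farnesol and 476 ± 95.7 CPM with vehicle (−0.24, SE 0.16), and the pro-apoptotic Bbc3 averaged 0.948 ± 0.778 CPM after farnesol and 1.97 ± 1.48 CPM with vehicle.

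Endoplasmic reticulum chaperones and sensors numbered 6 higher and 16 lower of 22 tested (median −0.06), with a median of −0.13 to −0.01 when single libraries were left out. Pdia4, a disulfide isomerase, averaged 8.59 ± 1.98 CPM after farnesol and 12.0 ± 1.82 CPM with vehicle (−0.49, SE 0.28), and Creld2 averaged 1.97 ± 0.696 CPM after farnesol and 3.19 ± 0.997 CPM with vehicle (−0.70, SE 0.54). Neither passed.

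**Figure D4:**
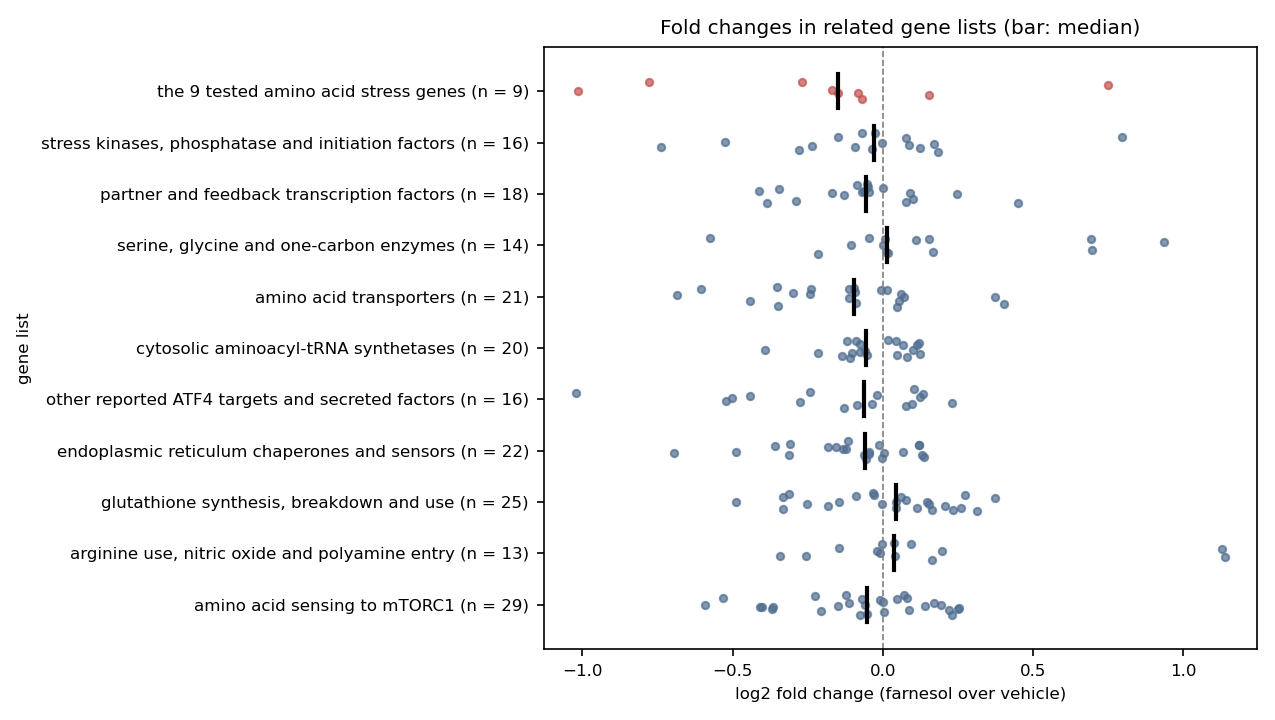
Log2 fold change of farnesol over vehicle (horizontal axis) of each tested gene in the set (red) and in 10 related lists (blue, rows), with the median as a black bar. The medians of the 10 lists lie between −0.10 and 0.04, the median of the 9 genes is −0.15, and Chac1 is the leftmost red point at −1.01. The red points include Chac1 and Slc7a2, chosen because they were lower in fits of these data, so their median is no test against the lists.

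Genes that make, break down and use glutathione, the substrate of the CHAC1 enzyme, numbered 14 higher and 11 lower of 25 tested (median 0.04, and −0.02 without farnesol replicate 1). Chac2, a relative with slower activity on the same substrate, averaged 3.11 ± 0.362 CPM after farnesol and 3.43 ± 1.71 CPM with vehicle (−0.14, SE 0.49). Ggct, which handles gamma-glutamyl amino acids, averaged 6.23 ± 1.13 CPM after farnesol and 5.01 ± 1.68 CPM with vehicle (0.31, SE 0.37). The secreted peroxidase Gpx3 averaged 305 ± 54.5 CPM after farnesol and 383 ± 72.9 CPM with vehicle (−0.33, SE 0.17), and the glutathione reductase Gsr averaged 8.76 ± 4.17 CPM after farnesol and 12.2 ± 3.39 CPM with vehicle (−0.49, SE 0.33).

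Genes that use arginine, a substrate of CAT2, numbered 7 higher and 6 lower of 13 tested (median 0.04, and −0.03 without farnesol replicate 1). Arg2, the mitochondrial arginase, averaged 76.2 ± 9.55 CPM after farnesol and 76.4 ± 7.83 CPM with vehicle, a log2 fold change of 0.00 (SE 0.16). Nos1, the nitric oxide synthase of muscle fibres, averaged 127 ± 21.6 CPM after farnesol and 129 ± 29.1 CPM with vehicle (−0.02, SE 0.18). Nos3, the endothelial synthase, was at 5.91, 4.02 and 3.20 CPM in farnesol replicates 1, 2 and 3, and at 2.11, 1.32 and 2.54 CPM in vehicle replicates 1, 2 and 3. Ddah1, which breaks down an inhibitor of these synthases, was at 4.58, 5.11 and 2.99 CPM in farnesol replicates 1, 2 and 3, and at 1.63, 1.21 and 2.88 CPM in vehicle replicates 1, 2 and 3. In both genes every farnesol value lay above every vehicle value, with log2 fold changes of 1.13 (SE 0.48) and 1.14 (SE 0.50), and neither passed over all genes. Nos3 and Ddah1 are 2 of the 3 list genes with all farnesol values above (1.55%, against 4.75% of all genes). The 5 endothelial markers summed to 102, 90.4 and 76.3 CPM in farnesol replicates 1, 2 and 3, and to 73.9, 75.6 and 107 CPM in vehicle replicates 1, 2 and 3, and their part in the Nos3 difference was not tested.

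Genes of amino acid sensing to mTORC1 numbered 13 higher and 16 lower of 29 tested (median −0.05, and 0.06 without vehicle replicate 3). Tsc1, a subunit of the complex that restrains mTORC1, averaged 46.8 ± 5.73 CPM after farnesol and 61.8 ± 4.34 CPM with vehicle (−0.40, SE 0.17). Sesn1, a sestrin like Sesn2, averaged 21.3 ± 2.65 CPM after farnesol and 28.2 ± 4.33 CPM with vehicle (−0.41, SE 0.21). In both genes every farnesol library lay below every vehicle library, as in 6 of the 194 list genes (3.09%, against 4.07% of all genes), and neither passed over all genes.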

How the data were processed

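Total RNA (500 ng) was made into Lexogen QuantSeq 3′ libraries, per the labels' protocols. Raw counts of reads per symbol were deposited, in a table for each library. Bowtie2, bedtools and mm10 are named in the submitters' processing notes; not given in the sources used here are versions, annotation, strand and any treatment of copied reads. Each table listed 23282 lines; 35 symbols stood on several lines and were summed, giving 23238 symbols.

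edgeR 4.0.16 in R 4.3.3 was run over all genes (filterByExpr, TMM, estimateDisp and glmQLFit with robust = TRUE, glmQLFTest, Benjamini-Hochberg, threshold 0.05). The SE was the log2 fold change over the root of F. The same fit was also run on simulated counts that held no outlying library, so that run gives no power for Chac1 or Slc7a2. CPM use TMM-scaled totals; likeness and centred values use log2 CPM with a prior count of 2. DESeq2 1.42.0, limma 3.58.1 (voom), other scaling and filtering, a replicate block and libraries left out in turn were the alternatives.

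The members, lists and tests were chosen with earlier results of these data known. Named genes are the members, 15 genes chosen by role, the 2 of smallest unadjusted p in each list, and the 3 most like Chac1 and Slc7a2. Positions and promoters are from RefSeq GRCm38.p6 (the mm10 chromosomes), transcript lengths and overlaps from GENCODE vM21.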

Additional observations from a re-analysis of the deposited data

How the results depend on the processing

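The count of genes past an adjusted p of 0.05 in edgeR was 0 with all 6 libraries, 13 without the filter on low counts, and between 0 and 3 with single libraries left out. The 3 calls came without vehicle replicate 2 and included Chac1. Replicate numbers here follow the sample titles, whereas the column headings of the counts skip some numbers in each group. Libraries with the same replicate number need not share a heading number. Deviations of libraries with the same replicate number correlated at −0.02 to 0.06. With 3 libraries per group these values cannot show whether same-numbered libraries had a batch in common, and the labels do not say. The replicate block called 0 genes and gave log2 fold changes of −0.90 for Chac1 and −0.70 for Slc7a2. Under the 7 settings that kept all libraries, Chac1 lay between −1.02 and −0.90 and Slc7a2 between −0.78 and −0.70. With single libraries left out Chac1 lay between −1.37 and −0.64 and Slc7a2 between −0.97 and −0.34. Refits of the 9 tested genes moved the log2 fold change by less than the spread between replicates in 116 cases and by more in 1, Asns without farnesol replicate 2 (−1.34). That spread came from all 6 libraries, so an outlying library widened the measure by which its own removal was judged. Slc7a2 without vehicle replicate 3 is among the 116, although its log2 fold change went from −0.78 to −0.34, against a spread of 0.445. The list medians ran from −0.18 to 0.09 with single libraries left out, and all but those of the serine enzymes and the chaperones changed sign. The core motif stood in the promoters of 4 genes and its longer form in 0. Sesn2, Asns, Trib3 and the scarce transporters are limited by depth.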
